A study of Mus musculus with 10 samples.

Results

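The 10 genes described here encode the major histocompatibility complex (MHC) molecules and their main helpers: B2m, H2-K1, H2-D1, Tap1 and Tap2 of the class I pathway, and H2-Aa, H2-Ab1, H2-Eb1, Cd74 and Ciita of the class II pathway. They were taken by gene symbol from the count table, where all 10 were found among 24544 genes. The table holds 10 bulk RNA-seq libraries of mouse bone marrow long-term hematopoietic stem cells, 5 sorted for surface neogenin-1 (NEO1+) and 5 without it (NEO1-), and the comparison asks how the transcriptomes of these fractions differ. The donors were Hoxb5-mCherry reporter mice, 2 to 3 months old. Every cell of both fractions passed 1 gate: lineage-negative, SCA1+, KIT+, CD34-, FLK2-, CD48-, CD150+ and positive for the Hoxb5 reporter. A library holds the RNA of 250 to 500 cells, pooled from 2 mice. No treatment was named. Whether the fractions were sorted from the same mice, and which MHC haplotype the mice carried, was not given in the sources used here.

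MHC class I molecules show peptides made inside the cell to CD8+ T cells and to natural killer cells. A heavy chain pairs with beta-2 microglobulin, and TAP pumps peptides made by the proteasome into the endoplasmic reticulum to load it. MHC class II molecules show peptides from endocytosed protein to CD4+ T cells, and the invariant chain (CD74) guards their groove until loading. Nearly all nucleated cells make class I, whereas class II is best known from B cells, dendritic cells and macrophages, under the control of the transactivator CIITA. Hematopoietic stem cells have also been described to present antigen through class II.

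The genes of the heavy chains, of TAP and of the class II chains lie together in the MHC on chromosome 17 in the build GRCm38 (GENCODE M21 annotation), which is the mm10 build that the submitters' processing notes name. They run from H2-K1 (chr17:33996017-34000347) over Tap1 (chr17:34187553-34197225), Tap2 (chr17:34203527-34216321), H2-Ab1 (chr17:34257689-34269419), H2-Aa (chr17:34282744-34287823) and H2-Eb1 (chr17:34305867-34316674) to H2-D1 (chr17:35262730-35267499). B2m lies at chr2:122147686-122153083 and Ciita at chr16:10480059-10528418. MHC promoters share an enhanceosome site of an X box, which can hold a TGACG core, and a Y box. The Y box is ATTGG, the reverse complement of CCAAT. The boxes are bound by RFX, CREB and NF-Y and attract CIITA or NLRC5. Of the 10 genes, 6 (all but Tap2, H2-Ab1, Cd74 and Ciita) were read by symbol from the RefSeq promoter table (GRCm38.p6). Cd74 was set aside by choice, and no entry was used for Tap2, H2-Ab1 and Ciita. The shares of genes with a motif, given below, do not cover them. Of the 5 stretches below, all but that of H2-Eb1 hold exact TGACG and ATTGG in this layout. Capitals mark TGACG and ATTGG, and all are read 5′ to 3′ on the strand of the gene.
B2m (chr2:122147584-122147653, plus strand): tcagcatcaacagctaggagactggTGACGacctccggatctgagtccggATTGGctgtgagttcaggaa
H2-K1 (chr17:34000348-34000413, minus strand): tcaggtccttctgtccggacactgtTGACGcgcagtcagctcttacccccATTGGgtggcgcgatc
H2-D1 (chr17:35262993-35263022, plus strand): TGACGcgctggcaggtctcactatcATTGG
H2-Aa (chr17:34287852-34287922, minus strand): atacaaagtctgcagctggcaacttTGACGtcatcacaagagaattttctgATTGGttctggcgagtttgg
H2-Eb1 (chr17:34305753-34305827, plus strand): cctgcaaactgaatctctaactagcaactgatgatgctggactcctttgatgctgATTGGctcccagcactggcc
TGACG and ATTGG began 25 bases apart in B2m, H2-K1 and H2-D1 and 26 apart in H2-Aa. H2-Eb1 had ATTGG without an exact TGACG, and X boxes with other letters were not searched for. Tap1, the remaining gene read and not shown, held both motifs but not as a pair of this order and spacing. The H2-D1 stretch lies upstream of the RefSeq start but inside the H2-D1 gene and an exon of it in GENCODE M21. Within 250 bases upstream of the start, on either strand, ATTGG was present in 6 of the 6 genes and in 37.5% of the 27025 genes of the table. TGACG was present in 5 of 6 and in 19.8%, and TGACG followed on the same strand by ATTGG, 19 to 31 bases from start to start, in 4 of 6 and in 0.463%. Motifs and spacing were chosen with these sequences in view, and a match describes letters, not binding.

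Library totals ran from 21181669 to 38945806 counts. The sort marker Neo1 spanned 12.5 to 64.8 counts per 1000000 of effective library size (CPM) in the NEO1+ fraction, against 4.56 to 18.9 CPM without the marker. The ranges overlapped through NEO1+ library 4 alone, the lowest of its group. Rn45s, the precursor of ribosomal RNA, made up 32.3 ± 3.89% of all counts in the NEO1+ fraction, against 38.4 ± 5.01% in the NEO1- fraction, and 13146 ± 391 against 12142 ± 680.3 genes had a count (SD, n = 5 each). Both move with the group, and the part of the genes detected in the results below was not tested. Without Rn45s in the table the log2 fold changes of the 10 genes moved by at most 0.00173. All 14 stem cell markers of a list were present in the table and tested, with a summed level of 3279.5 to 3649 CPM per NEO1+ library and 3121 to 3654 CPM per NEO1- library. In bulk libraries, fewer cells of a type and less RNA per cell cannot be told apart. No replicate structure beyond the pools of mice was given, so p values measure the spread between these libraries.

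All 10 genes were counted in all 10 libraries, and all 10 passed the filter on low counts. Levels were set beside each other per kilobase of annotated exon (CPM per kb, mean ± SD over the 10 libraries). B2m stood highest at 2681 ± 280.2 CPM per kb, the 2nd highest level of 12011 genes tested that had an exon length. H2-K1 followed at 788 ± 67.0 CPM per kb (10th), and H2-D1 at 171 ± 14.9 (130th). Cd74 was at 78.1 ± 25.6, H2-Eb1 at 42.3 ± 13.1, H2-Ab1 at 39.6 ± 13.9, H2-Aa at 32.9 ± 11.1, Tap1 at 29.7 ± 8.17 and Tap2 at 27.5 ± 6.02 CPM per kb. All 6 thus stood among the upper 12.5% of the ranked genes. Ciita, the regulator, was far below them at 0.689 ± 0.439 CPM per kb, or 31 to 480 counts per library. Each neighbour from B2m down to Cd74 differed without overlap of the 10 values. Cd74 exceeded H2-Eb1 in 10 of 10 libraries, though their ranges overlapped. H2-Eb1, H2-Ab1, H2-Aa, Tap1 and Tap2 did not differ, each from the next of these, beyond the spread over libraries. Tap2 exceeded Ciita in 10 of 10 libraries without overlap.

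Reads of class I heavy chain genes can fit more than 1 gene. Of the stretches of 50 bases in their annotated transcripts, 9.63% for H2-K1 and 12.8% for H2-D1 occurred in a transcript of another gene. That share was 0% for B2m, H2-Ab1, H2-Eb1, Cd74 and Ciita and at most 0.655% for Tap1, Tap2 and H2-Aa. How the authors' counting treated such reads was not given in the sources used here, so the split of counts among heavy chain genes is uncertain.

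Between the fractions, the class I genes had means 2.60% to 13.8% lower in NEO1+, and none passed the test. Over all 12203 genes tested, 0 had an edgeR adjusted p under 0.05 (0%), while 806 (6.60%) had an unadjusted p under 0.05, and DESeq2 called 146 (1.0% of the 14606 genes it adjusted) and, with the library number as a block, 727 (5.49% of 13251). Of the 10 MHC genes, 0 were called by edgeR or by either DESeq2 fit, and 1, H2-D1, had an unadjusted edgeR p under 0.05. H2-D1 was at 434, 402, 375, 432 and 409 CPM across NEO1+ libraries 1 to 5, against 479, 453, 462, 454 and 505 CPM across NEO1- libraries 1 to 5. H2-D1, which encodes a classical heavy chain, was thus at a lower value in every NEO1+ library than in any NEO1- library. It averaged 411 ± 24.1 CPM in the NEO1+ fraction versus 470.4 ± 22 CPM in the NEO1- fraction (SD, n = 5 each), a mean 12.7% lower. The difference did not pass over all genes: log2 fold change of -0.20 (SE 0.08, 95% interval -0.36 to -0.03, edgeR adjusted p 0.624), with an unadjusted p of 0.0215. That p was 0.0189 to 0.0633 when 1 library was left out, the highest being without NEO1+ library 3. Groups that do not overlap were found for 1 of the 10 genes, beside 303 of 12203 genes (2.48%). H2-D1 was the steadiest of the 10 genes, with a coefficient of variation of 5.88% in NEO1+ and 4.68% in NEO1- libraries.

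The other heavy chain and the light chain overlapped between the fractions. H2-K1 was at 2113, 2139, 2026, 2346 and 2419.9 CPM across NEO1+ libraries 1 to 5, against 2364, 2558, 2136, 2479 and 2561 CPM across NEO1- libraries 1 to 5. NEO1- was higher in each same-numbered comparison, yet NEO1+ libraries 2, 4 and 5 lay above NEO1- library 3, so the ranges overlapped. H2-K1 encodes the other classical heavy chain. The test gave a log2 fold change of -0.13 (SE 0.07, 95% interval -0.28 to 0.01, edgeR adjusted p 0.807). B2m was at 1901, 2237, 2139.9, 2420.1 and 2679 CPM across NEO1+ libraries 1 to 5, against 2272, 2419, 2015, 2557 and 2417 CPM across NEO1- libraries 1 to 5. The lowest value belonged to NEO1+ library 1 and the highest to NEO1+ library 5, so B2m, the light chain shared by all class I molecules, spread as widely within NEO1+ as over all 10 libraries. It had a log2 fold change of -0.04 (SE 0.09, 95% interval -0.23 to 0.15, edgeR adjusted p 0.998), an interval of 0.853-fold to 1.11-fold. Without NEO1+ library 1 the log2 fold change of B2m was 0.0203, the single change of sign among the alternatives for these genes. The ratio of H2-K1 to H2-D1 per kb was 4.73 ± 0.331 in the NEO1+ fraction, against 4.52 ± 0.361 in the NEO1- fraction, and that of B2m to both heavy chains 2.90 ± 0.250 and 2.70 ± 0.128 (SD, n = 5 each). Both ratios overlapped between the groups.

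TAP1 and TAP2 form the peptide transporter. Tap1 was at 89.4, 163, 131, 148 and 219.7 CPM across NEO1+ libraries 1 to 5, against 164, 123, 212, 148 and 226 CPM across NEO1- libraries 1 to 5. Tap2 was at 104, 99.4, 91.8, 81.6 and 119 CPM across NEO1+ libraries 1 to 5, against 75.7, 84.1, 107, 131 and 147 CPM across NEO1- libraries 1 to 5. Tap1 spanned a factor of 2.53 over the 10 libraries and Tap2 a factor of 1.94. The groups overlapped in both, and the NEO1+ range of Tap2 lay within that of NEO1-. NEO1+ library 1 had the lowest Tap1, and NEO1- library 5 the highest of both genes. Tap1 had a log2 fold change of -0.21 (SE 0.22, 95% interval -0.69 to 0.26, edgeR adjusted p 0.973), and Tap2 a log2 fold change of -0.14 (SE 0.19, 95% interval -0.55 to 0.27, edgeR adjusted p 0.996). The Tap2 value was -0.01 without NEO1- library 5, and that of Tap1 was -0.10 without it and -0.39 without NEO1+ library 5.

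**Figure D1:**
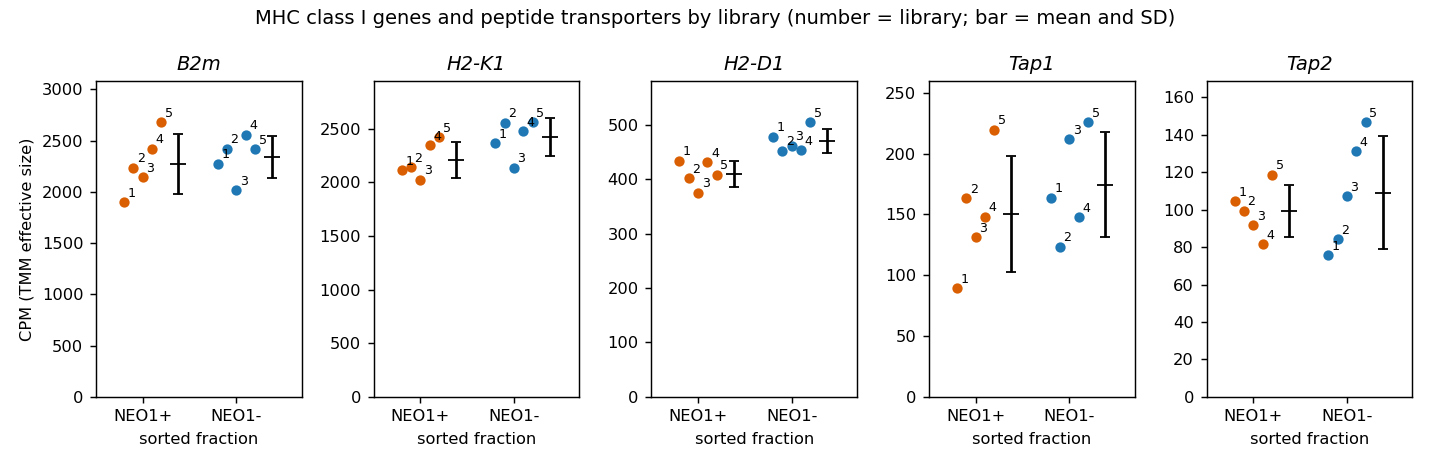
Levels in CPM (y axis from 0) of the class I genes and transporters in NEO1+ (orange) and NEO1- (blue) libraries. Each point is a library with its number, and the black bar gives mean and SD of 5. H2-D1 separates the groups, at 375 to 434 CPM with the marker and 453 to 505 CPM without it, and the other 4 genes overlap.

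The 4 class II chain and invariant chain genes were found in both fractions, at 48.7 to 196 CPM over all libraries, and none passed the test. Their highest library exceeded their lowest by a factor of 2.45 to 2.79, while their mean was 13.4% to 25.9% lower in NEO1+. Cd74 was at 90.2, 115, 88.4, 124 and 191 CPM across NEO1+ libraries 1 to 5, against 70.4, 141, 129, 166 and 196 CPM across NEO1- libraries 1 to 5. H2-Ab1 was at 73.3, 71.6, 71.9, 108 and 145 CPM across NEO1+ libraries 1 to 5, against 60.7, 95.1, 93.0, 129 and 168 CPM across NEO1- libraries 1 to 5. In both genes, library 5 was the highest of each fraction, NEO1- library 1 the lowest of all, and the groups overlapped. Cd74 encodes the invariant chain and H2-Ab1 the beta chain of the I-A molecule. Cd74 had a log2 fold change of -0.21 (SE 0.26, 95% interval -0.77 to 0.36, edgeR adjusted p 0.988), and H2-Ab1 a log2 fold change of -0.21 (SE 0.27, 95% interval -0.80 to 0.37, edgeR adjusted p 0.988). H2-Aa was at 68.0, 100.1, 103, 109.8 and 170.1 CPM across NEO1+ libraries 1 to 5, against 100.4, 159, 83.4, 166 and 189 CPM across NEO1- libraries 1 to 5. H2-Aa, the alpha chain that pairs with H2-Ab1, was lowest in NEO1+ library 1 and highest in NEO1- library 5. H2-Eb1 was at 48.7, 59.1, 49.3, 87.2 and 106 CPM across NEO1+ libraries 1 to 5, against 64.4, 100.0, 105, 84.4 and 119 CPM across NEO1- libraries 1 to 5. For H2-Eb1, the beta chain of the I-E molecule, 3 NEO1+ libraries lay below all NEO1- libraries, whereas NEO1+ libraries 4 and 5 lay within their range. H2-Aa had a log2 fold change of -0.34 (SE 0.26, 95% interval -0.89 to 0.21, edgeR adjusted p 0.915). H2-Eb1 had a log2 fold change of -0.43 (SE 0.24, 95% interval -0.95 to 0.09, edgeR adjusted p 0.824), with the largest difference among the 9 genes other than Ciita.

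Library 5 was the highest of its fraction in both fractions for 7 of the 10 genes: these 4 class II genes, H2-K1, Tap1 and Tap2. The fold changes of the 4 class II genes moved most on leaving out NEO1+ library 5. Without NEO1+ library 5 the log2 fold changes were -0.55 for H2-Aa, -0.43 for H2-Ab1, -0.63 for H2-Eb1 and -0.43 for Cd74. Without NEO1- library 5 they were -0.21, -0.01, -0.33 and -0.06 in the same order. None passed in either case, with edgeR adjusted p values of at least 0.848. The ratio of H2-Aa to H2-Ab1 per kb was 0.804 ± 0.152 in the NEO1+ fraction and 0.897 ± 0.228 in the NEO1- fraction, and that of Cd74 to the 3 chains together 0.716 ± 0.0700 and 0.643 ± 0.0828 (SD, n = 5 each). The 2 class I heavy chains exceeded the 3 class II chains together by 9.57 ± 2.33 and 8.30 ± 2.17 times per kb.

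Ciita, the transactivator of class II genes, was the least abundant and most variable of the 10. Ciita was at 4.23, 3.66, 2.4, 7.27 and 10.02 CPM across NEO1+ libraries 1 to 5, against 15.3, 9.04, 5.96, 0.942 and 6.95 CPM across NEO1- libraries 1 to 5. The highest and the lowest value were both in NEO1- libraries, numbers 1 and 4, a factor of 16.2 apart. In counts these were 480 and 31. Its log2 fold change of -0.47 (SE 0.78, 95% interval -2.14 to 1.21, edgeR adjusted p 0.998) leaves a wide interval. The value was -0.05 without NEO1- library 1, -0.75 without NEO1- library 4, -0.28 without NEO1+ library 3, -0.80 without NEO1+ library 5 and -0.18 in limma-voom. NEO1- library 1, with the most Ciita, had the least Cd74 and H2-Ab1 of all libraries, and NEO1- library 4, with the least Ciita, had the third highest Cd74.

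**Figure D2:**
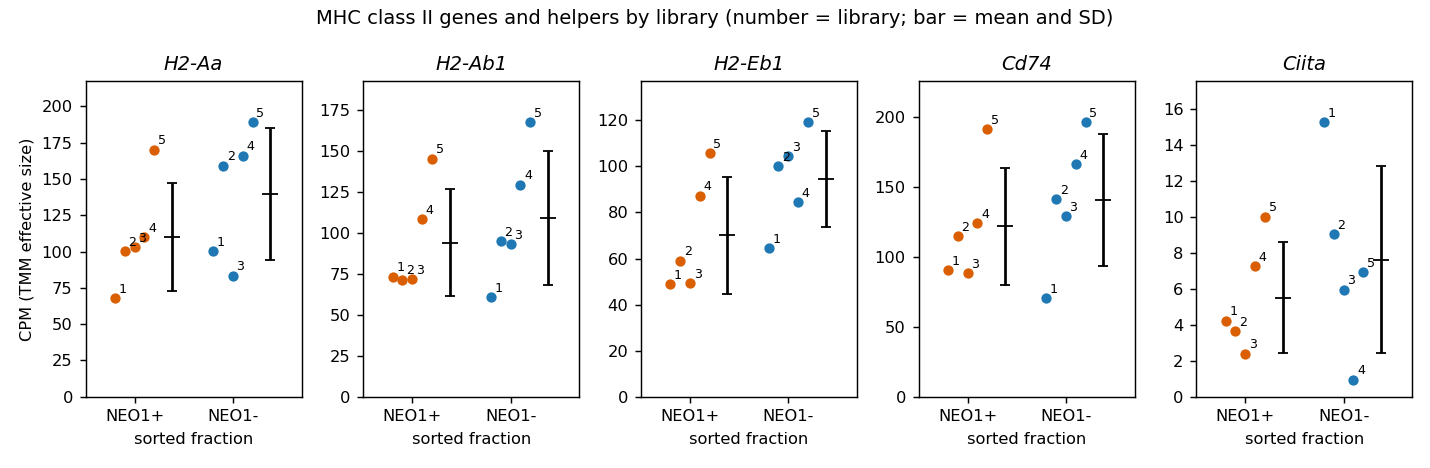
Levels in CPM (y axis from 0) of class II genes and helpers in NEO1+ (orange) and NEO1- (blue) libraries. Each point is a library with its number, and the black bar gives mean and SD of 5. Library 5 is the highest of each fraction for H2-Aa, H2-Ab1, H2-Eb1 and Cd74, and all 5 genes overlap between the fractions.

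The class II genes varied together from library to library. Across the 10 libraries, log2 CPM of Cd74 and H2-Ab1 correlated with Pearson's r 0.95 (permutation p 2e-05, adjusted 0.00014) and Spearman's rho 0.93 (permutation p 0.00036, adjusted 0.00252). Cd74 and H2-Eb1 correlated with Pearson's r 0.82 (permutation p 0.00588, adjusted 0.0181) and Spearman's rho 0.83 (permutation p 0.00466, adjusted 0.0163), and Cd74 and H2-Aa with Pearson's r 0.78 (permutation p 0.00902, adjusted 0.0181) and Spearman's rho 0.76 (permutation p 0.0143, adjusted 0.0335). With the 2 libraries farthest from the median of Cd74 left out, the r values were 0.92, 0.85 and 0.82. Ciita and Cd74 had Pearson's r -0.11 (permutation p 0.791, adjusted 0.791) and Spearman's rho 0.07 (permutation p 0.862, adjusted 0.862), and no relation passed between the transactivator and its target (r -0.0495 without the 2 libraries farthest from the median of Ciita). In class I, B2m and H2-K1 correlated with Pearson's r 0.78 (permutation p 0.0104, adjusted 0.0181) and Spearman's rho 0.72 (permutation p 0.0239, adjusted 0.0418), and r was 0.73 without the 2 libraries farthest from the median of B2m. H2-K1 and H2-D1 had Pearson's r 0.63 (permutation p 0.0547, adjusted 0.0766) and Spearman's rho 0.55 (permutation p 0.103, adjusted 0.145), and Tap1 and Tap2 Pearson's r 0.42 (permutation p 0.219, adjusted 0.256) and Spearman's rho 0.39 (permutation p 0.263, adjusted 0.306). Without the 2 libraries farthest from the median of the first gene, their r values were 0.44 and 0.44. These are 7 relations, adjusted together, chosen by role with the values known. The permutations treated the 10 libraries as separate, and whether equal numbers mark shared mice was not given. If they do, these p values are too small. With the mean of each fraction taken off, r was 0.94 for H2-Ab1, 0.85 for H2-Eb1 and 0.78 for H2-Aa with Cd74. A fraction of 5 libraries is too small for a value of its own.

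**Figure D3:**
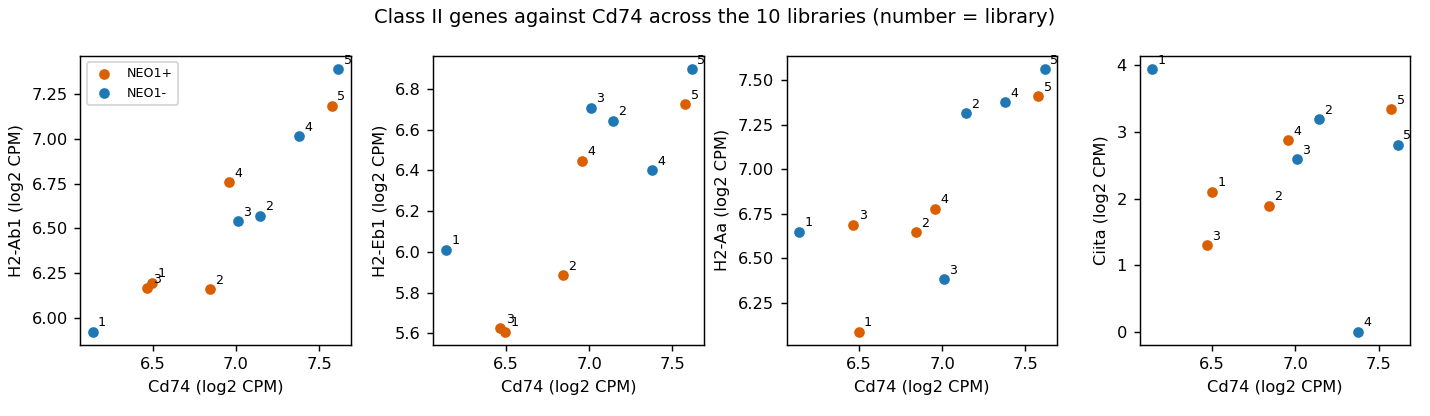
Log2 CPM of H2-Ab1, H2-Eb1, H2-Aa and Ciita (y axes) against log2 CPM of Cd74 (x axes) in the 10 libraries, orange for NEO1+ and blue for NEO1-, with library numbers. The first 3 genes are higher in libraries with more Cd74 (r 0.95, 0.82 and 0.78), and Ciita has r -0.11.

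Among all 12202 other genes tested, H2-Ab1 had the pattern most like Cd74 over the 10 libraries (Pearson's r 0.95), followed by Hdac11 (0.91), Stat2 (0.89), Gbp8 (0.88) and Prr12 (0.88). H2-Eb1 ranked 20th and H2-Aa 45th in that order. Stat2 encodes a signal transducer of interferon receptors, and Gbp8 belongs to the interferon-induced guanylate-binding protein family. For B2m the most alike gene was H2-Aa (0.89), then Smarcc1 (0.88), Skp1a (0.88), Zcchc9 (0.88) and Smim15 (0.87). H2-K1 came at rank 52 for B2m, and H2-D1 at rank 5233. The libraries share their scaling, and the order is a description over 10 libraries.

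Of the wider antigen presentation pathway, 0 genes on the lists passed over all genes. All 10 MHC genes had a negative log2 fold change, with a median of -0.21, beside 49.0% negative and a median of 0.01 over all genes tested. Leaving out NEO1+ library 5 moved the median of the 10 to -0.41, and leaving out NEO1- library 5 moved it to -0.11. The 10 share libraries and vary together, so their common sign is not 10 separate observations. The immunoproteasome list holds subunits that cut peptides suited to class I, and the PA28 activator. All 6 of its genes were tested and all 6 were negative, with a median of -0.25. Their summed level was 764 to 969.7 CPM per NEO1+ library and 977 to 1103 CPM per NEO1- library, without overlap. How often sums of as many other genes separate was not tested. Taken singly, Psmb8, Psmb9, Psmb10, Psme1 and Psme2b each overlapped between the fractions. The sums of the other antigen presentation lists and of the interferon list overlapped between the fractions. Psme2, a PA28 subunit, was at 91.1, 121, 81.9, 107 and 111 CPM across NEO1+ libraries 1 to 5, against 129, 132, 138, 129 and 129 CPM across NEO1- libraries 1 to 5. Its groups did not overlap, as in 303 of 12203 genes (2.48%). Psme2 had a log2 fold change of -0.36 (SE 0.13, 95% interval -0.64 to -0.08, edgeR adjusted p 0.586) and an unadjusted p of 0.0143. Psme2 has a close copy in the table, Psme2b, which was at 10.7 ± 1.82 CPM in the NEO1+ fraction versus 15.2 ± 2.98 CPM in the NEO1- fraction (SD, n = 5 each), so reads may be split between them. Psmb8 was at 271 ± 33.5 CPM in the NEO1+ fraction versus 310.2 ± 57.4 CPM in the NEO1- fraction (SD, n = 5 each), and Psmb9 at 106 ± 19.95 CPM in the NEO1+ fraction versus 129 ± 25.3 CPM in the NEO1- fraction (SD, n = 5 each).

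Of the class II chain list, 5 genes other than the members were tested and all 5 were negative, with a median of -0.34. The gene of smallest p was H2-DMa, the alpha chain of the peptide exchange factor H2-DM, at 98.3 ± 24.2 CPM in the NEO1+ fraction versus 125 ± 24.2 CPM in the NEO1- fraction (SD, n = 5 each) with a log2 fold change of -0.34 (SE 0.19, 95% interval -0.74 to 0.06, edgeR adjusted p 0.823). H2-Ea-ps had 0 counts in all libraries. The 6 other genes of the class I loading list were all positive, from 0.02 to 0.24 with a median of 0.03. Pdia3, a disulfide isomerase of the loading complex, had the smallest p among them at 512 ± 32.1 CPM in the NEO1+ fraction versus 484 ± 31.5 CPM in the NEO1- fraction (SD, n = 5 each) and a log2 fold change of 0.08 (SE 0.08, 95% interval -0.09 to 0.25, edgeR adjusted p 0.957), and Tapbp, which bridges TAP and the heavy chain, was at 279 ± 8.15 CPM in the NEO1+ fraction versus 275 ± 62.8 CPM in the NEO1- fraction (SD, n = 5 each). The difference between the lists was not tested.

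Other class I heavy chain genes of the list numbered 29 in the table, of which 13 were tested, 6 positive and 7 negative (median -0.16). Cd1d1, which presents lipids, had the smallest p at 57.3 ± 3.71 CPM in the NEO1+ fraction versus 72.4 ± 22.4 CPM in the NEO1- fraction (SD, n = 5 each) with a log2 fold change of -0.34 (SE 0.21, 95% interval -0.78 to 0.11, edgeR adjusted p 0.864). The most abundant non-classical gene was H2-T23 (Qa-1), at 190.2 ± 29.2 CPM in the NEO1+ fraction versus 213 ± 47.3 CPM in the NEO1- fraction (SD, n = 5 each). Of the list, 9 genes, among them H2-Q6, H2-Q7, H2-Q8 and H2-Q9, had 0 counts in every library. H2-Q6 to H2-Q9 are near-identical copies, and their counts are uncertain. Of 12 other regulators of MHC transcription, 5 were positive and 7 negative (median -0.09), with the smallest p for Creb1 at 27.1 ± 6.42 CPM in the NEO1+ fraction versus 39.2 ± 15.7 CPM in the NEO1- fraction (SD, n = 5 each) and a log2 fold change of -0.53 (SE 0.32, 95% interval -1.23 to 0.17, edgeR adjusted p 0.864). Nlrc5, the class I counterpart of Ciita, was at 66.2 ± 19.3 CPM in the NEO1+ fraction versus 83.1 ± 31.2 CPM in the NEO1- fraction (SD, n = 5 each). Of 5 further genes of class II peptide supply, 3 were positive and 2 negative, and Ctss, the cathepsin that trims the invariant chain, was at 9.47 ± 5.89 CPM in the NEO1+ fraction versus 17.2 ± 3.42 CPM in the NEO1- fraction (SD, n = 5 each) with a log2 fold change of -0.86 (SE 0.58, 95% interval -2.11 to 0.38, edgeR adjusted p 0.892). Of 7 T cell costimulation genes 4 were tested, all negative (median -0.24), with the smallest p for Cd274 (PD-L1) at 28.2 ± 6.18 CPM in the NEO1+ fraction versus 32.4 ± 7.03 CPM in the NEO1- fraction (SD, n = 5 each) with a log2 fold change of -0.20 (SE 0.25, 95% interval -0.73 to 0.33, edgeR adjusted p 0.988). Cd40 had 0 counts in all libraries.

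Interferon gamma is a main inducer of MHC genes. Of 24 interferon receptor and response genes, 9 were positive and 15 negative, with a median of -0.08. Ifi47, an interferon-induced GTPase, was the 1 with an unadjusted p under 0.05, and it lay in the direction opposite to the MHC genes. It was at 128, 131, 128, 126 and 194 CPM across NEO1+ libraries 1 to 5, against 96.0, 97.3, 115, 112 and 107 CPM across NEO1- libraries 1 to 5. The groups did not overlap, as in 303 of 12203 genes (2.48%). Ifi47 had a log2 fold change of 0.42 (SE 0.14, 95% interval 0.11 to 0.73, edgeR adjusted p 0.553). Without NEO1+ library 5 its log2 fold change was 0.28.

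**Figure D4:**
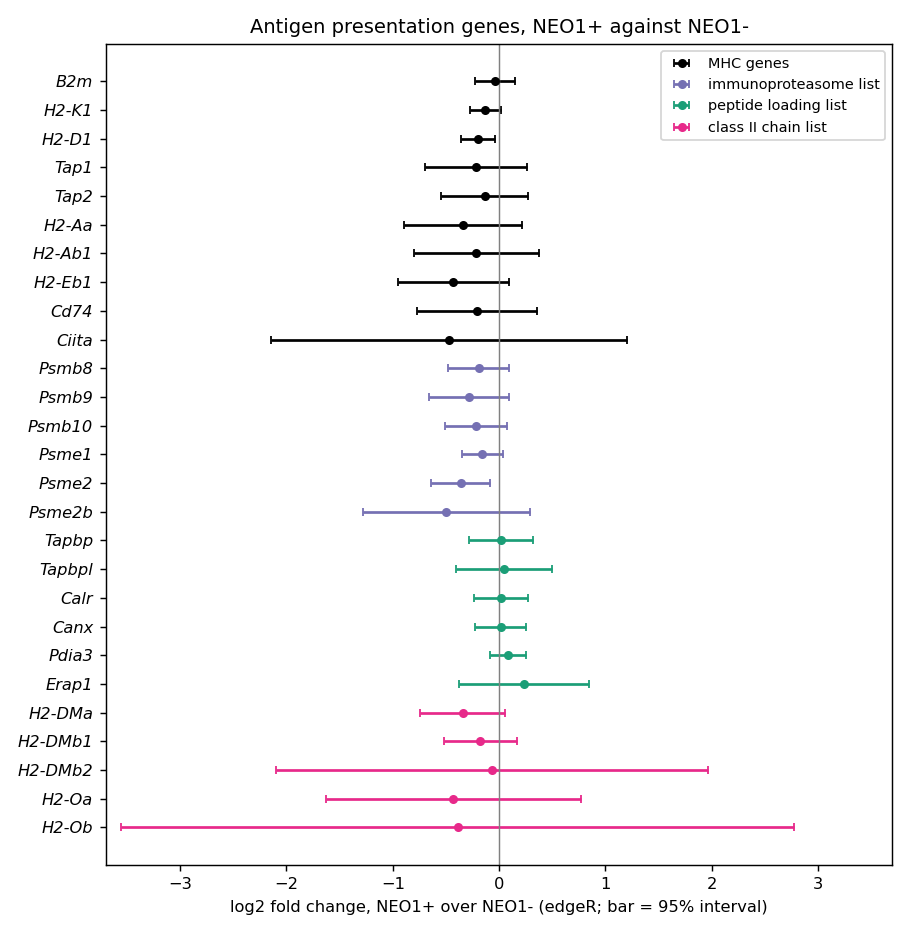
Log2 fold change (x axis, NEO1+ over NEO1-, edgeR) with its 95% interval for the 10 MHC genes (black), the immunoproteasome list (purple), the other peptide loading genes (green) and the other class II chain genes (pink). The MHC genes run from -0.47 to -0.04, and the intervals of H2-D1 and Psme2 lie below 0 before adjustment.

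Cells rich in class II were read through their markers. Of 15 B cell markers in the table, 5 had 0 counts in all libraries, among them Ms4a1 and Pax5, which with 3 counts as the limit of a count of 0 allows at most 0.144 CPM in a library. Cd79b made up 87.9% of that list, at 25.0 to 60.9 CPM. The other 14 summed to 1.41 to 9.49 CPM per NEO1+ library and 0 to 18.7 CPM per NEO1- library. Of 12 dendritic cell markers, Siglech and Batf3 had 0 counts, Itgax, the gene of CD11c, had counts in 1 library (at most 3.30 CPM), and Cst3 made up 93.0% of the list, at 221 to 271 CPM. The other 11 summed to 8.49 to 18.9 CPM with NEO1 and 4.03 to 45.1 CPM without it. The whole dendritic list ran from 233 to 273 CPM per NEO1+ library and from 273 to 301 CPM per NEO1- library. Its 4 tested genes all had a negative log2 fold change (median -0.71, 0 called). Of the 3 tested B cell markers, 1 was positive and 2 were negative (median -1.11). Of the 6 tested monocyte and macrophage markers, 2 were positive and 4 negative (median -0.29). Of 14 monocyte and macrophage markers, Fcgr1 had 0 counts, Adgre1 had counts in 2 libraries and Csf1r in 4, each at most 5.67 CPM. C1qa had counts in 9 libraries, at most 9.68 CPM. Lyz2 made up 93.2% of that list, at 234 to 766 CPM, and the other 13 genes summed to 10.8 to 67.3 and 13.0 to 43.3 CPM. The class II genes Cd74, H2-Aa, H2-Ab1 and H2-Eb1 were at 48.7 CPM or more in each of the 10 libraries. NEO1- library 5, which had the most Cd74, also had the most Csf1r of all libraries and the second highest C1qa, at 6.48 CPM. The highest C1qa was in NEO1- library 1, which had the least Cd74. The part of these cell types in the class II values was not tested. Of the T and natural killer cell list, 5 of 11 genes, Cd3e included, had 0 counts. Neutrophil granule genes ranged from 159 to 4457 CPM in sum per NEO1+ library and from 153 to 2719.8 CPM per NEO1- library, and their part in the MHC values was not tested. Summed erythroid markers were at 1494 to 2111 and 1406 to 1733 CPM, mostly Car2, and endothelial and stromal markers at 83.7 to 126 and 41.5 to 91.6 CPM.

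**Figure D5:**
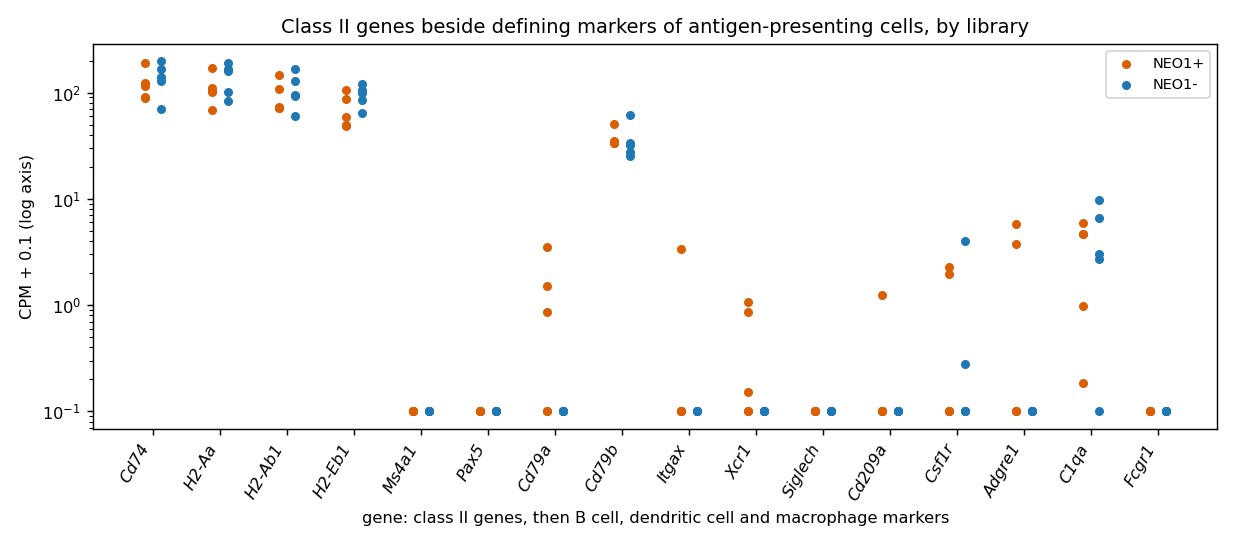
CPM plus 0.1 (log y axis) of 4 class II genes and of markers of B cells, dendritic cells and macrophages (x axis) in each library, orange for NEO1+ and blue for NEO1-. Points at the bottom are libraries with 0 counts: the class II genes stay at 48.7 CPM or more, and Ms4a1, Pax5, Siglech and Fcgr1 have no count in any library. Cd79b is at 25.0 to 60.9 CPM. The markers drawn were picked from longer lists. Not drawn are the most abundant dendritic cell and macrophage markers, Cst3 (221 to 271 CPM) and Lyz2 (234 to 766 CPM).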

How the data were processed

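Libraries were made by Smart-seq2 (18 cycles of PCR, 40 ng of cDNA tagmented), per the labels' protocols, without molecular identifiers. The limit given for a count of 0 thus covers counting error only, whereas the edgeR intervals include the spread between libraries. The authors deposited raw counts per gene and a table of log2 values, each log2 of the count over 1 size factor per library, plus 1. The submitters' processing notes name STAR 2.4, DESeq2 1.22.2 and mm10. The counting tool, the annotation and strand use were not given in the sources used here. From the counts, fractions were compared by edgeR's robust quasi-likelihood test (edgeR 4.0.16, R 4.3.3; ~ group, 5 against 5 libraries) after filterByExpr and TMM scaling, with Benjamini-Hochberg adjustment over 12203 genes and a threshold of 0.05. CPM uses TMM effective sizes, and log2 CPM a prior count of 2. DESeq2 1.42.0, limma 3.58.1 and the other alternatives are in the closing section. The code was tested on simulated data. There edgeR recovered 41% of changes of 1 log2 unit, and 2.33% of its calls were false. DESeq2 recovered 56% of them, but 26.6% of its calls were false. Exon lengths are GENCODE M21 unions. The members and lists were chosen with earlier results of these data known. Genes named beyond the members are, per list, those with an unadjusted edgeR p under 0.05 or else the gene of smallest p, and the 5 most like B2m and Cd74; H2-T23, Nlrc5, Tapbp, Psmb8, Psmb9, Psme2b, markers and genes at 0 were named after their values were seen. 1 marker gene is not reported here.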

Additional observations from a re-analysis of the deposited data

Results flagged for a closer look

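In 56 groups of 5 values (the 10 MHC genes, 12 genes of the lists and 6 ratios per kb, each in both fractions), 3 held 1 library standing apart by Dixon's 95% criterion. Chance alone marks about 5% of groups. Log2 CPM of Ifi47 reached 7.60 in NEO1+ library 5, whereas the remaining NEO1+ libraries lay between 6.98 and 7.03. Log2 CPM of Nlrc5 was 4.95 in NEO1- library 1, the library with the least Cd74, whereas the remaining NEO1- libraries lay between 6.41 and 6.81. The ratio of Tap2 to Tap1 per kb was 1.69 in NEO1+ library 1, whereas the remaining NEO1+ libraries lay between 0.782 and 1.01.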

How the results depend on the processing

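Of the 10 MHC genes, 0 passed an adjusted p of 0.05 under any of the alternatives run across all genes. Over 200 values of their fold changes under the alternatives, 199 were negative. The exception was B2m at 0.0203 without NEO1+ library 1 (leaving out each library gave -0.10 to 0.0203). The 200 values come from the same 10 libraries, so they are not separate observations. H2-D1 ranged from -0.23 to -0.17 (adjusted p 0.109 to 0.9999). The count of genes called over the whole table was 0 in edgeR, and 2 with no filter on low counts, 146 with DESeq2 (90 higher and 56 lower in NEO1+), 2 with limma-voom, 1 with limma-trend on the authors' log2 table, and 727 with the replicate block in DESeq2 (567 and 160). Leaving out 1 library gave 0 to 1, the 1 being without NEO1- library 1. The replicate block in edgeR called 0 genes, and 3 MHC genes then had an unadjusted p under 0.05: H2-K1, H2-D1 and H2-Eb1 (adjusted 0.637, 0.656 and 0.678). Whether equal numbers mark shared mice was not given and was not tested. Deviations of same-numbered libraries correlated at 0.00403 to 0.0359 over all genes, beside a mean of -0.0042 for differently numbered ones. Not every library correlated best with its own number. These correlations cover all genes tested. Of the MHC genes, H2-K1, Tap1, Tap2, H2-Aa, H2-Ab1, H2-Eb1 and Cd74 were highest in library 5 of each fraction. B2m, H2-D1 and Ciita were not. limma-voom, limma-trend, the block in edgeR and the block in DESeq2 put the median of all genes at 0.12, 0.11, 0.10 and 0.13, against 0.01. Relative to it, the median of the 10 MHC genes was -0.31, -0.31, -0.30 and -0.34, against -0.22. Leaving out both libraries numbered 4, an alternative added after the data were seen, called 0 genes. The cause of these shifts was not tested.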
